A study of Mus musculus with 4 samples.

Results

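The matrix metalloproteinases, the ADAMTS proteases with their ADAMTS-like relatives, and the tissue inhibitors of metalloproteinases (TIMPs) were examined in mouse skeletal muscle. They were taken as every gene on the array whose name in the scanner files starts with Mmp, Timp, Adamts or Adamtsl followed by a digit. This gave 48 genes with 81 probes, of 27597 genes or named transcripts on the array. Each gene was represented by its brightest probe, the one whose level averaged over the 4 arrays was highest.

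The study profiled muscle on 1-colour Agilent mouse arrays, which read the amount of each transcript as the fluorescence of a spot. The 4 groups were ob/ob TBP-2-/-, ob/ob, TBP-2-/- and WT, with 1 array each. TBP-2 is the name the labels use for thioredoxin-interacting protein, encoded by Txnip. The ob/ob mouse lacks functional leptin and becomes obese. The ob/ob TBP-2-/- group carries both the ob/ob genotype and the loss of TBP-2, and the WT group carries neither. All mice were 10 weeks old and ate freely, per the labels. Not stated in the labels are the muscle sampled, the mouse strain, the sex, the deleted stretch of Txnip, and if RNA of several mice was pooled, and the ob/ob group was taken from its title because another label of that sample spells the genotype differently.

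With 1 array per genotype there was no replicate check of any difference between arrays. The error printed beside each log2 difference, a standard error (SE), comes from the scanner software's error model, has a median of 0.21 over the differences of these genes and covers spot error and not the spread between mice. The signal of Txnip was 166 in ob/ob TBP-2-/- muscle and 13142 in ob/ob muscle, and it was 868 in TBP-2-/- muscle and 13209 in WT muscle, so both null groups were low. The arrays had between 22675 and 24221 probes well above background. All 6 muscle fibre markers examined, such as the actin and creatine kinase of muscle fibres, were measured on every array.

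Matrix metalloproteinases are zinc proteases that cleave collagens, gelatin and other matrix proteins, and some of them sit in the cell membrane. ADAMTS proteases are secreted zinc proteases that trim procollagens or cleave proteoglycans and other matrix proteins, and the ADAMTS-like proteins resemble them but lack the protease domain. TIMPs bind the active site of these enzymes and block it, and the balance of enzymes and inhibitors shapes the connective tissue around muscle fibres during growth and repair.

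Promoter windows of Timp1, an inhibitor, and Mmp3, the protease known as stromelysin, are shown because both had higher signals in TBP-2-null muscle in both lean and ob/ob mice, which was known when they were chosen. Each window is RefSeq sequence of the GRCm38.p6 assembly and runs from 250 bases before to 50 bases after the annotated start. The Timp1 window lies at chrX:20869916-20870215 on the plus strand and the Mmp3 window at chr9:7445572-7445871 on the plus strand. Capitals mark matches to an AP-1 motif (TGANTCA), an Ets motif (AGGAAG), a GC box (GGGCGG) or a TATA motif (TATAAA), searched on both strands, so that a GC box on the minus strand reads CCGCCC.
Timp1: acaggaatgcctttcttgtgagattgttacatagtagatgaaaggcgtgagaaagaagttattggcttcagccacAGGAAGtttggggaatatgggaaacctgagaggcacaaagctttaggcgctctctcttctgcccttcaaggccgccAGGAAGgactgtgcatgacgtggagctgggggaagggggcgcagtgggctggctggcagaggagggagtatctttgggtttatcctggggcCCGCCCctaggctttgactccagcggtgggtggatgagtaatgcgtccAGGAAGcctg
Mmp3: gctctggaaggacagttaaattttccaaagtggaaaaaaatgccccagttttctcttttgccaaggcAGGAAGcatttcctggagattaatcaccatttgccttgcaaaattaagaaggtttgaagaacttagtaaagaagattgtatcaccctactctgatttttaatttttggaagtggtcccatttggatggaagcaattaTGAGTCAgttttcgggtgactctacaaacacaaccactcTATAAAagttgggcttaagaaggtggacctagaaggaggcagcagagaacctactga
The Mmp3 window held an AP-1 match 46 bases before the start, an Ets match 183 bases before it and a TATA match 7 bases before it, and no GC box. The Timp1 window held Ets matches 175 and 99 bases before the start and 40 bases after it, and a GC box 8 bases before it, and no AP-1 or TATA match. None of these matches overlapped another.

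Promoter windows were matched for 33 of the genes, with 36 windows. AP-1 matches stood in 19.4% of these windows and in 7.81% of all 32851 windows of the same length. The 7 genes with such a match were Mmp1a, Mmp3, Mmp7, Mmp10, Mmp12, Mmp13 and Mmp20, and all but Mmp3 were among the genes not measured on any array. GC boxes stood in 61.1% of these windows, against 35.7% of all windows, and 1 of the 22 genes with a GC box was not measured on any array. TATA matches stood in 27.8% of these windows, against 8.32% of all. Ets matches stood in 41.7% of these windows, against 35.4% of all. A match describes letters in the window and is not a bound site.

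Of the 48 genes, 32 had a brightest probe well above background in ob/ob TBP-2-/- muscle, 31 in ob/ob muscle, 33 in TBP-2-/- muscle and 30 in WT muscle. A probe well above background on an array is called measured there. On all 4 arrays 28 genes were measured, on 3 arrays 3 genes, on 1 array 5 genes and on no array 12 genes. The genes measured on 3 arrays, not on WT, were Adamts3, Adamts18 and Mmp24. Those measured on 1 array were Adamts12 and Mmp28 in TBP-2-/- muscle, Mmp16 in ob/ob TBP-2-/- muscle, and Adamts13 and Mmp19 in WT muscle. All 4 TIMPs and all 5 ADAMTS-like genes were measured throughout, as were 11 of 18 ADAMTS genes and 8 of 21 metalloproteinases. The genes measured on no array were Mmp1a, Mmp7, Mmp8, Mmp10, Mmp12, Mmp13, Mmp20, Mmp21, Mmp25, Adamts4, Adamts6 and Adamts19, and no other probe of these genes was measured either. They include the collagenases Mmp1a, Mmp8 and Mmp13, the macrophage elastase Mmp12 and the tooth enamel protease Mmp20. Over the whole array, 14928 genes were measured on all 4 arrays, and the comparisons use the 28 genes among them. Signals are given as the scanner files hold them, and log2 differences are taken after each array was scaled at its 75th percentile.

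**Figure D1:**
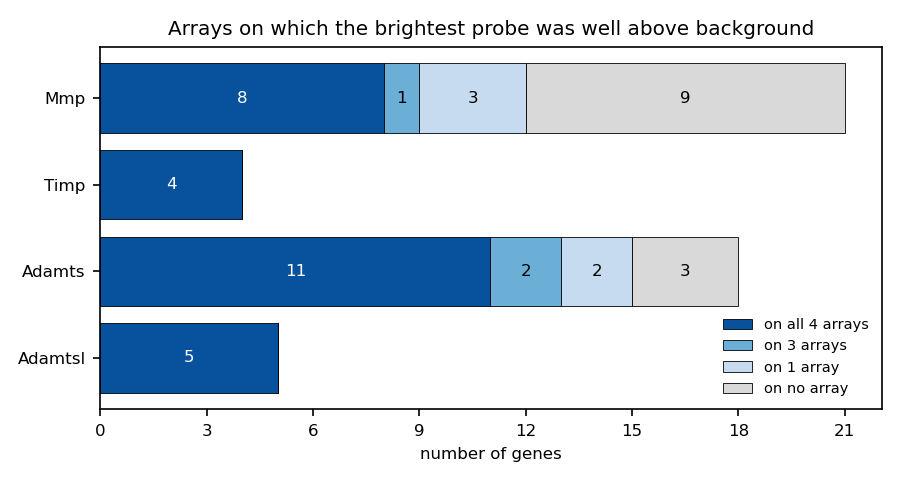
Number of genes in each family (x axis) by how many of the 4 arrays had the gene's brightest probe well above background. All 4 Timp and all 5 Adamtsl genes were measured on every array, while 9 of 21 Mmp genes were measured on none.

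Among the inhibitors, Timp1 was higher in the TBP-2-null and in the ob/ob arrays in every comparison. TIMP1 is a secreted inhibitor of most metalloproteinases that is known to be induced in inflamed and injured tissue. The signal of its brightest probe (mm8, chrX:20031508-20031566, plus strand) was 321 in ob/ob TBP-2-/-, 222 in ob/ob, 261 in TBP-2-/- and 114 in WT muscle. WT was the lowest and ob/ob TBP-2-/- the highest. Its log2 difference was 1.07 ± 0.21 (SE) for TBP-2-/- minus WT and 0.78 ± 0.20 for ob/ob TBP-2-/- minus ob/ob. It was 0.82 ± 0.21 for ob/ob minus WT and 0.53 ± 0.20 for ob/ob TBP-2-/- minus TBP-2-/-. All 4 differences were thus above 0. A second Timp1 probe gave signals of 44.4 in ob/ob TBP-2-/-, 26.2 in ob/ob, 36.6 in TBP-2-/- and 14.9 in WT muscle, in the same order as the brightest probe.

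Timp4, an inhibitor known for its expression in heart and skeletal muscle, had signals of 1445 in ob/ob TBP-2-/-, 1921 in ob/ob, 1546 in TBP-2-/- and 846 in WT muscle. WT was the lowest again, and the other 3 genotypes lay close together. The log2 difference was 1.04 ± 0.20 for ob/ob minus WT and 0.74 ± 0.20 for TBP-2-/- minus WT, against 0.13 ± 0.20 for ob/ob TBP-2-/- minus TBP-2-/- and -0.17 ± 0.20 for ob/ob TBP-2-/- minus ob/ob. The comparisons without the WT array were therefore within 1 SE of 0.

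Timp2, which both inhibits metalloproteinases and helps Mmp14 activate Mmp2, had signals of 14148 in ob/ob TBP-2-/-, 11275 in ob/ob, 18487 in TBP-2-/- and 14403 in WT muscle. Each TBP-2-null array was above its partner with TBP-2, by 0.57 ± 0.20 on the log2 scale in ob/ob mice and 0.23 ± 0.20 in lean mice. Timp3, an inhibitor bound to the matrix that also blocks ADAMTS proteases, had signals of 5331 in ob/ob TBP-2-/-, 6323 in ob/ob, 7488 in TBP-2-/- and 4697 in WT muscle. Its log2 difference was 0.54 ± 0.20 for TBP-2-/- minus WT and -0.00 ± 0.20 for ob/ob TBP-2-/- minus ob/ob. In neither gene did any comparison reach 2-fold.

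Among the metalloproteinases, Mmp9 was lower on both ob/ob arrays, and Mmp3 and Mmp23 were higher on both TBP-2-null arrays. Mmp9 is the gelatinase made by neutrophils and macrophages among other cells. The signal of its brightest probe (mm8, chr2:164646008-164646067, plus strand) was 35.7 in ob/ob TBP-2-/-, 24.9 in ob/ob, 75.8 in TBP-2-/- and 76.9 in WT muscle. Both ob/ob arrays were below both lean arrays. The log2 difference was -1.77 ± 0.27 for ob/ob minus WT and -0.86 ± 0.23 for ob/ob TBP-2-/- minus TBP-2-/-. A second Mmp9 probe is printed 10 times on each array, and 1 of these spots was left out as an outlier in ob/ob TBP-2-/- muscle. Its spots ranged from 19.9 to 25.5 in ob/ob TBP-2-/- muscle, from 16.1 to 22.5 in ob/ob muscle, from 54.7 to 66.5 in TBP-2-/- muscle and from 41.7 to 51.5 in WT muscle. No spot of the ob/ob arrays overlapped the spots of the lean arrays, and this separates arrays, not groups of mice. These spot signals are not scaled between arrays. How often replicate spots of probes of other genes separate in this way was not examined.

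Of 6 neutrophil markers, S100a9 was the only one measured on all 4 arrays, and Ngp, Ltf, Elane and Camp were measured on none. The log2 difference of S100a9 was 0.95 for ob/ob minus WT, the opposite direction to Mmp9. All 6 macrophage markers were measured, 1 of 6 was above 0 for ob/ob minus WT and 0 of 6 for ob/ob TBP-2-/- minus TBP-2-/-, with medians of -0.17 and -0.20. Their summed level, relative to the 75th percentile of each array, was 66.6 in ob/ob TBP-2-/-, 55.8 in ob/ob, 74.1 in TBP-2-/- and 57.5 in WT muscle. Most of this sum was Lyz2, with log2 differences of -0.04 for ob/ob minus WT and -0.14 for ob/ob TBP-2-/- minus TBP-2-/-. The part of these cells in the Mmp9 values was not tested, and in whole muscle fewer cells of a type and less RNA per cell cannot be told apart.

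**Figure D2:**
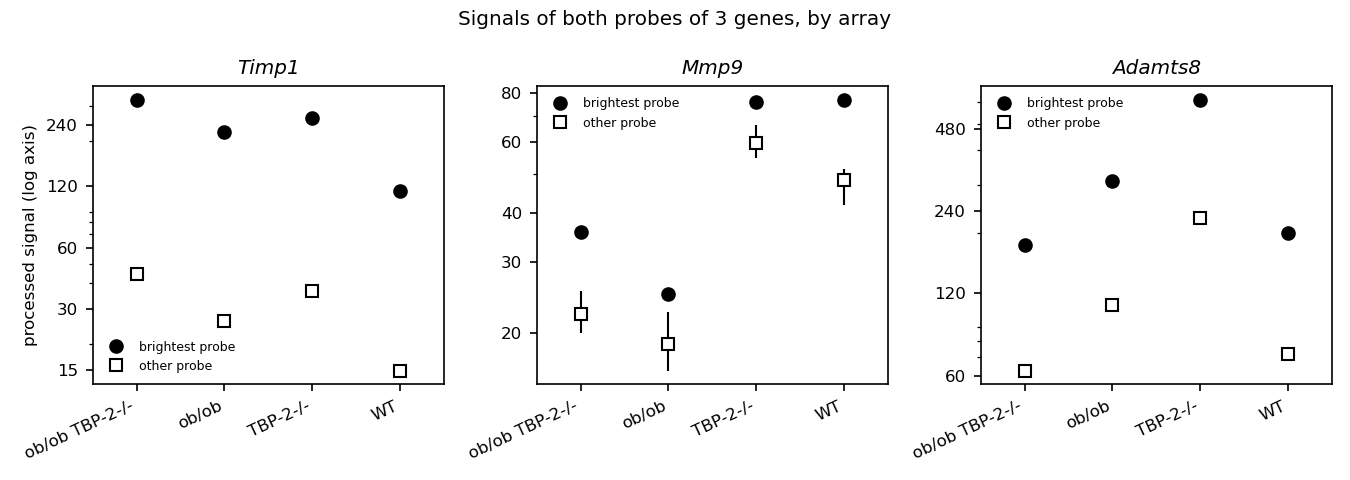
Processed signal (y axis, log scale) of both measured probes of Timp1, Mmp9 and Adamts8 on the array of each genotype, with filled circles for the brightest probe and open squares for the other probe. Vertical lines on the open squares of Mmp9 span the lowest to the highest of its replicate spots. The 2 probes of a gene order the genotypes alike, except that the Mmp9 probes order TBP-2-/- and WT differently. The brightest Mmp9 probe was at 75.8 in TBP-2-/- and 76.9 in WT muscle, and the other at 59.9 and 48.4.

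Mmp3 cleaves proteoglycans, fibronectin and other matrix proteins and activates other metalloproteinases. Its signal was 157 in ob/ob TBP-2-/-, 93.9 in ob/ob, 123 in TBP-2-/- and 70.1 in WT muscle. Each TBP-2-null array was above its partner, by 0.99 ± 0.21 in ob/ob mice and 0.68 ± 0.21 in lean mice on the log2 scale. Mmp23, a metalloproteinase anchored in the membrane by its amino end, had signals of 149 in ob/ob TBP-2-/-, 100.9 in ob/ob, 193 in TBP-2-/- and 103 in WT muscle. Its log2 difference was 0.81 ± 0.21 for ob/ob TBP-2-/- minus ob/ob and 0.77 ± 0.21 for TBP-2-/- minus WT, while both ob/ob comparisons were within 1 SE of 0. Mmp3 and Mmp23 were chosen after their values were seen.

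Mmp2, the gelatinase of fibroblasts and other stromal cells, had signals of 2280 in ob/ob TBP-2-/-, 2419 in ob/ob, 2355 in TBP-2-/- and 1376 in WT muscle. WT was the lowest, and the other 3 arrays lay within 1.5-fold of each other. The log2 difference was 0.64 ± 0.20 for TBP-2-/- minus WT and 0.67 ± 0.20 for ob/ob minus WT. Mmp14, the membrane protease that activates Mmp2, had a different order, with signals of 576 in ob/ob TBP-2-/-, 490 in ob/ob, 846 in TBP-2-/- and 687 in WT muscle. Mmp15, another membrane protease, had signals of 239 in ob/ob TBP-2-/-, 242 in ob/ob, 356 in TBP-2-/- and 319 in WT muscle. For both genes each ob/ob array was below its lean partner and no difference reached 2-fold, but with spike-in scaling ob/ob minus WT was at 0.01 for Mmp14 and 0.11 for Mmp15, against -0.63 and -0.54. These 2 genes, too, were chosen after their values were seen. Mmp11 stayed within 1.5-fold in all 4 comparisons, as did the brightest Mmp17 probe. A dimmer Mmp17 probe had signals of 26.4 in ob/ob TBP-2-/-, 34.8 in ob/ob and 21.4 in TBP-2-/- muscle. In WT muscle its signal was 10.5, not well above background.

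**Figure D3:**
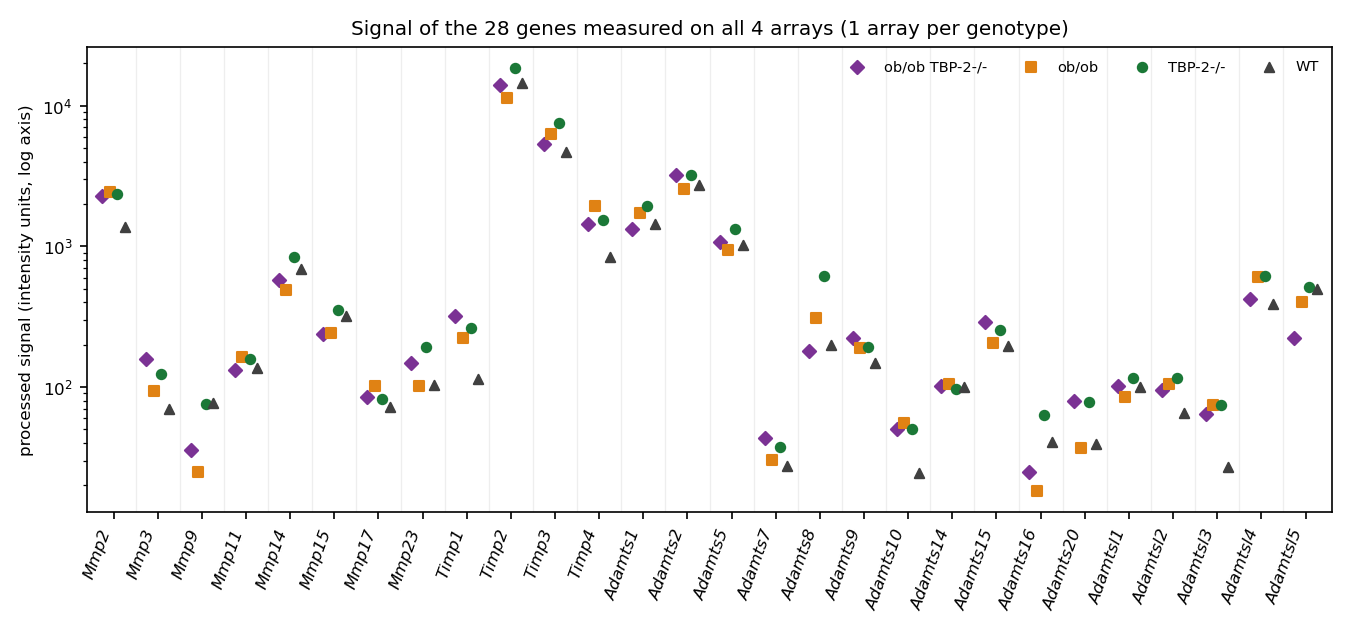
Processed signal (y axis, intensity units on a log scale) of the 28 genes measured on all 4 arrays, with 1 point per genotype in the order ob/ob TBP-2-/-, ob/ob, TBP-2-/- and WT. Heights can be compared within a gene only, since probes differ in brightness. Points are not scaled between arrays, and the WT point is the lowest of the 4 for 13 genes, or for 12 genes once arrays are scaled.

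Among the ADAMTS proteases, Adamts8 was higher in TBP-2-/- muscle than on any other array. It belongs to the group of ADAMTS enzymes that cleave proteoglycans such as aggrecan. The signal of its brightest probe (mm8, chr9:30712200-30712259, plus strand) was 180 in ob/ob TBP-2-/-, 310 in ob/ob, 614 in TBP-2-/- and 200 in WT muscle. TBP-2-/- was the highest, and ob/ob TBP-2-/- was close to WT. On the log2 scale the difference was 1.49 ± 0.21 for TBP-2-/- minus WT and -0.54 ± 0.21 for ob/ob TBP-2-/- minus ob/ob. It was 0.50 ± 0.21 for ob/ob minus WT and -1.54 ± 0.21 for ob/ob TBP-2-/- minus TBP-2-/-. A second probe, which adjoins the first, gave 1.53 and -0.56 in the TBP-2 comparisons and 0.46 and -1.63 in the ob/ob comparisons. The loss of TBP-2 thus went with a higher signal in lean muscle and a lower one in ob/ob muscle, a difference between effects that was not tested because each genotype has 1 array.

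Adamts16 had signals of 24.7 in ob/ob TBP-2-/-, 18.1 in ob/ob, 62.8 in TBP-2-/- and 40.6 in WT muscle. Both ob/ob arrays were below both lean arrays, as for Mmp9. The log2 difference was -1.30 ± 0.31 for ob/ob minus WT and -1.11 ± 0.25 for ob/ob TBP-2-/- minus TBP-2-/-. The probe (mm8, chr13:71195642-71195701, minus strand) was the only one of 2 Adamts16 probes that was measured.

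Adamts20, another protease of the proteoglycan group, had signals of 79.2 in ob/ob TBP-2-/-, 37.1 in ob/ob, 78.7 in TBP-2-/- and 39.6 in WT muscle. The TBP-2-null arrays were alike and above both arrays with TBP-2. The log2 difference was 1.34 ± 0.23 for ob/ob TBP-2-/- minus ob/ob and 0.86 ± 0.23 for TBP-2-/- minus WT. The other 2 Adamts20 probes were measured on no array. Adamts10, which binds fibrillin microfibrils, had signals of 49.9 in ob/ob TBP-2-/-, 55.1 in ob/ob, 50.6 in TBP-2-/- and 24.6 in WT muscle. WT was the lowest, with a log2 difference of 1.02 ± 0.26 for ob/ob minus WT and 0.91 ± 0.26 for TBP-2-/- minus WT.

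Adamts2, which removes the amino-terminal propeptide of fibrillar procollagens, had signals of 3207 in ob/ob TBP-2-/-, 2544 in ob/ob, 3194 in TBP-2-/- and 2743 in WT muscle. No difference of this brightest probe reached 1.5-fold. Adamts14, with the same activity, stayed within 1.5-fold as well. Adamts3, the remaining procollagen protease, had signals of 36.2 in ob/ob TBP-2-/-, 26.3 in ob/ob and 28.5 in TBP-2-/- muscle and was not well above background in WT muscle, where its signal was 11.1. It was at least 2.31-fold higher in TBP-2-/- than in WT muscle and at least 2.12-fold higher in ob/ob muscle than there, as bounds against the lowest signal measured on the WT array. Adamts13, the protease of von Willebrand factor, was measured on the WT array alone, with a signal of 19.3 there. The lowest signal measured on that array was 11.3. As bounds, Adamts13 was at least 2.26-fold lower in TBP-2-/- and at least 1.97-fold lower in ob/ob than in WT muscle. Adamts1, a proteoglycan protease, had signals of 1324 in ob/ob TBP-2-/-, 1721 in ob/ob, 1933 in TBP-2-/- and 1442 in WT muscle, within 1.5-fold in all comparisons. Of the other ADAMTS genes measured on every array, the brightest probes of Adamts5 and Adamts9 were within 1.5-fold throughout. Those of Adamts7 and Adamts15 passed 1.5-fold in ob/ob TBP-2-/- minus ob/ob alone, at 0.77 and 0.73 on the log2 scale. A dimmer Adamts5 probe, measured on every array, was at 1.04 for ob/ob minus WT, against -0.265 for the brightest probe. Its other differences were within 1.5-fold. A dimmer Adamts9 probe was well above background on the TBP-2-null arrays alone. It was at 0.90 for TBP-2-/- minus WT, 1.29 for ob/ob TBP-2-/- minus ob/ob and 0.69 for ob/ob TBP-2-/- minus TBP-2-/-.

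Among the ADAMTS-like genes, Adamtsl3 had signals of 64.6 in ob/ob TBP-2-/-, 75.1 in ob/ob, 74.3 in TBP-2-/- and 26.9 in WT muscle. The WT array stood apart, with log2 differences of 1.33 ± 0.24 for TBP-2-/- minus WT and 1.34 ± 0.24 for ob/ob minus WT, against 0.02 ± 0.21 and 0.03 ± 0.21 in the comparisons without it. The other Adamtsl3 probe was measured on no array. Adamtsl2 and Adamtsl4, both known to bind fibrillin, reached at most 0.71 and 0.52, both for TBP-2-/- minus WT, and Adamtsl1 stayed within 1.5-fold. Adamtsl5 was the lowest in ob/ob TBP-2-/- muscle, with a signal of 223 there, 401 in ob/ob, 515 in TBP-2-/- and 500 in WT muscle, and a log2 difference of -0.98 ± 0.20 for ob/ob TBP-2-/- minus TBP-2-/-. Adamtsl5 was chosen after its values were seen.

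Compared between TBP-2-/- and WT muscle, 3 of the 28 genes were 2-fold or more higher, namely Adamts8, Adamtsl3 and Timp1, and 0 were 2-fold lower. Of all 14928 genes, 1.7% were 2-fold higher and 0.75% lower, which is 2.45% either way. The log2 differences of the 28 genes ran from -0.18 to 1.49, and 25 of them were above 0, against 39.8% of all genes. Their median was 0.30, with a median of -0.07 over all genes. Compared between ob/ob TBP-2-/- and ob/ob muscle, 1 gene, Adamts20, was 2-fold or more higher and 0 were lower, with 1.68% of all genes higher and 0.811% lower, or 2.49% either way. The range was from -0.61 to 1.34, 20 genes were above 0, against 55.1% of all genes, and the median was 0.33 against 0.03 over all genes.

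These TBP-2 comparisons share no array. Both were above 0 for 18 of the 28 genes, which is 64.3%, against 25.2% of all genes. With arrays scaled to the spike-in RNA the count was 10, against 6.91% of all genes, and the median for ob/ob TBP-2-/- minus ob/ob was -0.19, below 0, while all genes shifted down by 0.52. Set against the median of all genes, 17 of 28 were higher in both, against 27.9% of all genes. Scaling by 1 number per array cannot change this count, so its being the same under either scaling is no check. At 1.5-fold or more, 4 genes were higher in both comparisons, namely Timp1, Mmp3, Mmp23 and Adamts20, against 1.73% of all genes. With spike-in scaling only Adamts20 stayed past 1.5-fold in both, at 0.82 in ob/ob mice. The others fell under 1.5-fold in ob/ob mice but stayed above 0, at 0.26 for Timp1, 0.47 for Mmp3 and 0.29 for Mmp23.

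Compared between ob/ob and WT muscle, 3 genes were 2-fold or more higher (Adamts10, Adamtsl3 and Timp4), against 1.86% of all genes, and 2 were lower (Adamts16 and Mmp9), against 1.66%, or 3.52% either way. The range was from -1.77 to 1.34, and 14 of the 28 genes were above 0, against 44.4% of all genes, with a median of 0.05 against -0.05 over all genes. Compared between ob/ob TBP-2-/- and TBP-2-/- muscle, 0 genes were 2-fold higher, with 1.48% of all genes higher, and Adamts8 and Adamts16 were lower, with 1.48% of all genes lower, or 2.96% either way. Here 14 of the 28 genes were above 0, against 55.4% of all genes, the range was from -1.54 to 0.59, and the median was -0.00, against 0.04 over all genes. The ob/ob comparisons share no array either, and both were above 0 for 8 genes, both below 0 for 8 genes, and opposite for 12, while 30.04% of all genes were above 0 in both and 30.1% below. With spike-in scaling 12 genes were above 0 in both, against 37.2% of all genes, and 2 were below. Mmp9 and Adamts16 were the 2 genes 1.5-fold or more lower in both, against 1.84% of all genes, and none was 1.5-fold higher in both.

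**Figure D4:**
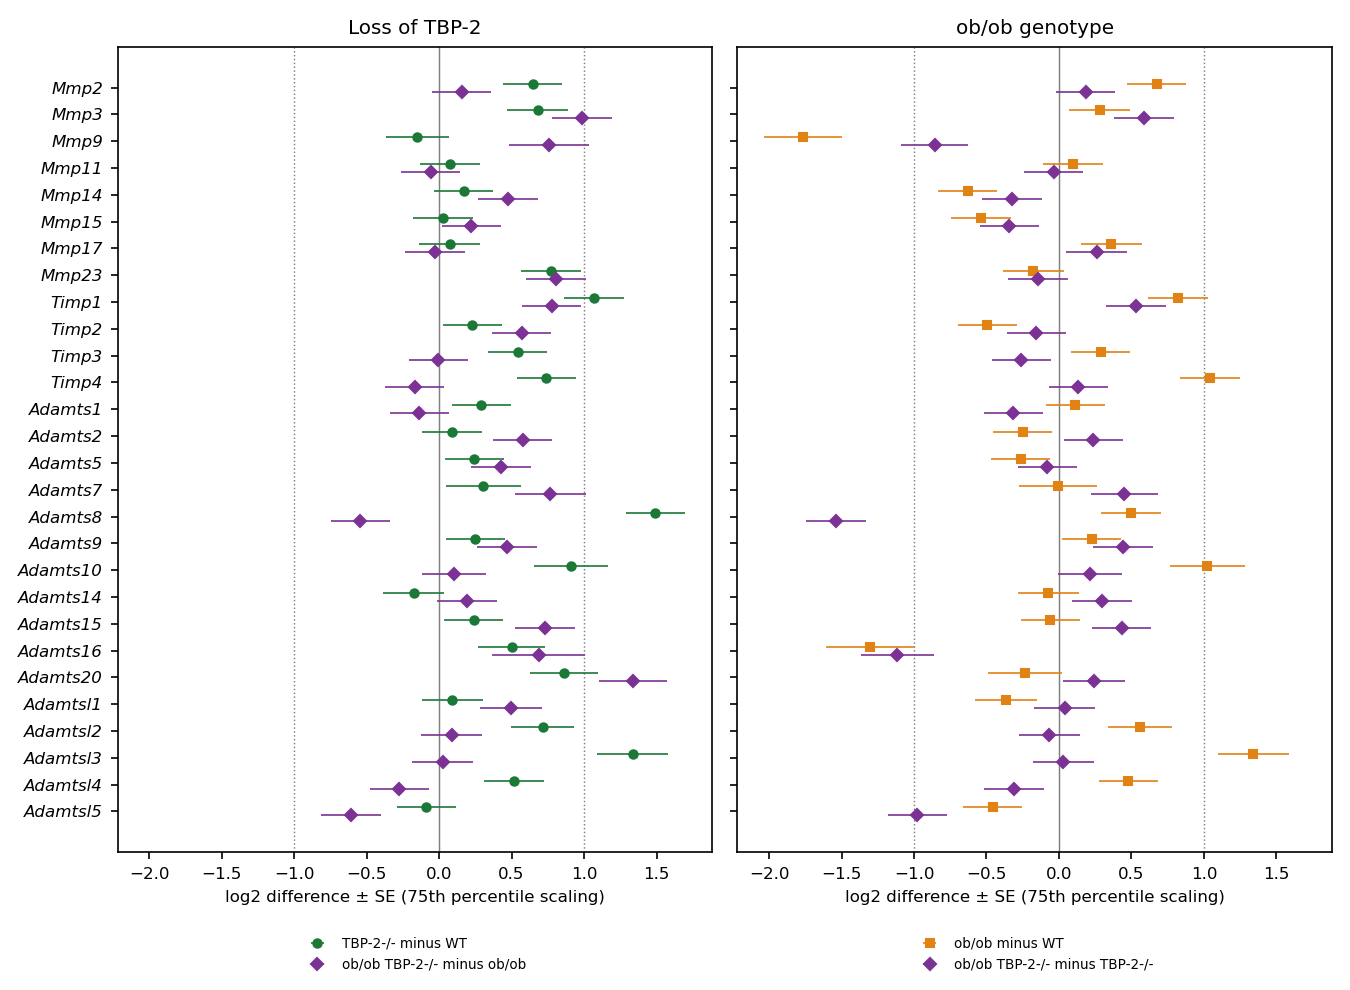
Log2 difference (x axis, scaled at each array's 75th percentile) of the 28 genes, for loss of TBP-2 on the left and for the ob/ob genotype on the right. Bars are the SE of the scanner software's error model, and dotted lines mark 2-fold. Timp1, Mmp3, Mmp23 and Adamts20 lie right of 0 in both TBP-2 comparisons, Mmp9 and Adamts16 lie left of 0 in both ob/ob comparisons, and Adamts8 lies on opposite sides.

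After scaling, the level was the lowest on the WT array for 12 of the 28 genes, which is 42.9%, against 23.6% of all genes. Adamtsl3 was the 1 gene that was 2-fold or more below each other array there, against 0.656% of all genes. The summed level of 7 tendon markers moved with this pattern, at 124 in ob/ob TBP-2-/-, 92.8 in ob/ob, 65.9 in TBP-2-/- and 21.6 in WT muscle, with 6 of 7 measured on every array and a median log2 difference of 3.92 for TBP-2-/- minus WT. Most of this sum was Thbs4, with a log2 difference of 1.20 for TBP-2-/- minus WT. The 6 cartilage markers, of which 4 were measured on every array, summed to 8.19 in ob/ob TBP-2-/-, 5.47 in ob/ob, 6.65 in TBP-2-/- and 3.39 in WT muscle, mostly from Col2a1. The summed level of 6 fibroblast markers was 363 in ob/ob TBP-2-/-, 248 in ob/ob, 323 in TBP-2-/- and 256 in WT muscle, and all 6 were higher in both TBP-2 comparisons. The 6 Schwann cell markers summed to 40.8 in ob/ob TBP-2-/-, 27.3 in ob/ob, 35.3 in TBP-2-/- and 15.5 in WT muscle. The 6 muscle fibre markers summed to 6901 in ob/ob TBP-2-/-, 6356 in ob/ob, 6215 in TBP-2-/- and 7117 in WT muscle. Markers of some other cell types were higher with the loss of TBP-2 as well, but not those of endothelium or smooth muscle in both comparisons. Of 6 endothelial markers 5 were above 0 for TBP-2-/- minus WT and 1 for ob/ob TBP-2-/- minus ob/ob, with medians of 0.26 and -0.24. Of 6 smooth muscle markers 2 and 3 were above 0 in that order, with medians of -0.05 and -0.04. All 6 adipocyte markers were higher in both TBP-2 comparisons, with medians of 0.92 for TBP-2-/- minus WT and 1.34 for ob/ob TBP-2-/- minus ob/ob, where all 6 passed 2-fold, and the additive fit called 2 of them higher. Their summed level was 64.0 in ob/ob TBP-2-/-, 25.3 in ob/ob, 138 in TBP-2-/- and 67.8 in WT muscle. On both lean arrays this sum was mostly Cfd, with signals of 3382 in ob/ob TBP-2-/-, 1627 in ob/ob, 34430 in TBP-2-/- and 15411 in WT muscle. For ob/ob minus WT 4 of the 6 adipocyte markers were above 0, with a median of 0.56. For ob/ob TBP-2-/- minus TBP-2-/- 5 were above 0, with a median of 0.90. All 6 macrophage markers were also higher in both, with medians of 0.52 for TBP-2-/- minus WT and 0.30 for ob/ob TBP-2-/- minus ob/ob. Of 5 mast cell markers measured on all 4 arrays, 5 were higher for ob/ob TBP-2-/- minus ob/ob, with a median of 0.70, and 3 for TBP-2-/- minus WT, with a median of 0.07. The 6 mast cell markers summed to 10.1 in ob/ob TBP-2-/-, 5.89 in ob/ob, 4.42 in TBP-2-/- and 4.28 in WT muscle. The part of all these cells in the values of the proteases and inhibitors was not tested.

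The 4 arrays form a design of both genotypes in all combinations, which allowed a single test, an additive fit in limma that takes the departure from additivity as error. It has 1 residual degree of freedom per gene. For the loss of TBP-2 limma called 0 of the 28 genes at an adjusted p under 0.05, with 0.134% of all genes called higher and 0.107% lower, or 0.241% either way. Unadjusted p was under 0.05 for 7 of them, against 10.4% of all genes. The lowest adjusted p was that of Adamts20, with an additive log2 difference of 1.10 ± 0.19 (SE) and limma's adjusted p = 0.115, ranging from 0.0211 to 0.999994 over 7 alternative settings. Timp1 had an additive difference of 0.92 ± 0.17 (limma's adjusted p = 0.141, from 0.000423 to 0.999994 over the alternatives), and Mmp3 one of 0.83 ± 0.17 (limma's adjusted p = 0.166, from 0.0124 to 0.999994).

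For the ob/ob genotype the fit called 1 gene, Adamts16, which fell by 1.21 ± 0.17 on the log2 scale (limma's adjusted p = 0.0393, from 0.0239 to 0.684 over 7 alternative settings, 2 of which called it). On simulated arrays with differences added for the loss of TBP-2 only, the share of false TBP-2 calls exceeded the adjusted p threshold in most draws. Calls for the ob/ob genotype were not examined there. Of all genes 0.348% were called higher and 0.449% lower, or 0.797% either way. Mmp9 had an additive difference of -1.31 ± 0.24 and was not called (limma's adjusted p = 0.0765, from 0.00867 to 0.492, 2 of 7 alternatives calling it). Unadjusted p was under 0.05 for 9 genes, against 14.5% of all genes. Adamts8, whose differences were opposite, is not described by an additive fit.

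Related genes were taken from 3 lists. Of 23 regulators of matrix proteolysis, such as plasminogen activators, their inhibitors and the membrane inhibitor Reck, 15 were measured on all 4 arrays, and the fit called 0 in either effect. Their median log2 difference was 0.40 for TBP-2-/- minus WT and 0.17 for ob/ob TBP-2-/- minus ob/ob, with 11 and 12 of 15 above 0. Thbs2, a matricellular protein that promotes uptake of Mmp2, was the 1 regulator of these 15 past 2-fold, with signals of 584 in ob/ob TBP-2-/-, 491 in ob/ob, 454 in TBP-2-/- and 146 in WT muscle. Thbs1, its close relative, had signals of 150 in ob/ob TBP-2-/-, 209 in ob/ob and 51.9 in TBP-2-/- muscle and was not well above background in WT muscle, where its signal was 12.9. Of 25 other matrix proteases and their modulators 20 were measured on all 4 arrays, with medians of 0.40 for TBP-2-/- minus WT and 0.29 for ob/ob TBP-2-/- minus ob/ob, and the fit called 0. For ob/ob minus WT, the secreted serine protease Htra3 was at 1.06 on the log2 scale and the serine protease Prss23 at -1.18, each past 2-fold.

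Of 31 substrates of these enzymes, such as collagens, proteoglycans and fibronectin, 26 were measured on all 4 arrays. For TBP-2-/- minus WT 24 of the 26 were above 0, with a median of 0.48, and for ob/ob TBP-2-/- minus ob/ob 23 were above 0, with a median of 0.37. For ob/ob minus WT 21 were above 0 and for ob/ob TBP-2-/- minus TBP-2-/- 22, with medians of 0.35 and 0.20. Comp, a cartilage and tendon protein cleaved by Adamts7, had the largest difference among these 26, with signals of 2304 in ob/ob TBP-2-/-, 1828 in ob/ob, 1373 in TBP-2-/- and 39.0 in WT muscle. Eln, which encodes elastin, was the 1 substrate called for the ob/ob genotype, higher with limma's adjusted p = 0.0438, and 0 substrates were called for the loss of TBP-2. The lists overlap, since Comp and Fmod are tendon markers, Dcn and Col1a1 are fibroblast markers, and Acan and Col2a1 are cartilage markers.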

How the data were processed

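Skeletal muscle RNA of 4 genotypes, with 0.5 micrograms labelled with Cy3 and spike-in RNA added, was read on 1-colour arrays, 1 array per genotype on 1 slide with 1 scan date. Per the file headers, the deposited intensity values were made with the scanner software Agilent Feature Extraction, version 9.5.3.1. Per the same headers, background and spatial trend had been removed from the processed signal within each array, with no scaling across arrays. The authors also deposited a value table, which comparison with the scanner files showed to hold log2 values scaled at the 75th percentile and centred on each probe (Pearson r at least 0.99996 across 21736 probes, column medians from -0.0621 to 0.0912), so it keeps differences and no levels. Its rule for low values is not stated in what was used.

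Levels were log2 processed signals from which each array's 75th percentile, taken across 41174 non-control probes, was subtracted. This percentile was 261 in ob/ob TBP-2-/-, 309 in ob/ob, 306 in TBP-2-/- and 280 in WT muscle. Outlier spots were left out, 110, 59, 62 and 78 in that order, and replicate spots were averaged. No spot was saturated. Probes were named through RefSeq accessions (24375), symbols (6301) or synonyms (2426) of GRCm38.p6, and 8072 kept the name in the files. Positions of probes follow the mm8 annotation of the array, and exons or untranslated regions were not assigned.

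Pairwise differences have no replicate and no test. A bound for a gene dim on 1 array takes its signal there, or the lowest signal measured on that array if that is higher, as the dim side. The additive fit used limma 3.58.1 (lmFit, eBayes) in R 4.3.3 over 14928 genes measured on all 4 arrays, with Benjamini-Hochberg adjustment at 0.05. Its TBP-2 term was tested on simulated arrays, where the share of false calls exceeded the threshold in most draws. Values by array are given for the TIMPs, the 6 brightest genes, genes 2-fold different or called, and genes with a bound of 2-fold or more. Precision is limited by the number of arrays. The genes, lists, thresholds and alternatives were chosen with earlier results of these data known. Alternatives were quantile normalization, spike-in scaling, normexp background correction with an offset of 50, the median of a gene's probes, the deposited table, other filters on dim probes and a trend in eBayes.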

Additional observations from a re-analysis of the deposited data

Results flagged for a closer look

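Adamts8 differed in opposite directions with the loss of TBP-2 in lean and in ob/ob mice. The log2 difference for ob/ob TBP-2-/- minus ob/ob (-0.54) less that for TBP-2-/- minus WT (1.49) was -2.03 with the brightest probe. By construction the ob/ob difference with and without TBP-2 differed by the same -2.03. The difference was not tested, since each genotype has 1 array.

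The dimmer of the Adamts12 probes (mm8, chr15:11244755-11244814, plus strand), which no comparison used, had a signal of 60.8 in ob/ob muscle, where it was well above background, against 5.13 in ob/ob TBP-2-/-, 5.73 in TBP-2-/- and 4.68 in WT muscle, where it was not. On the ob/ob array 2 of the 8 neighbouring spots were also 2-fold or more above every other array. The brightest Adamts12 probe was measured in TBP-2-/- muscle alone and had a signal of 11.2 in ob/ob muscle. The part of the neighbouring spots in this value was not tested.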

How the results depend on the processing

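With spike-in scaling all genes shifted by 0.25 for TBP-2-/- minus WT, -0.52 for ob/ob TBP-2-/- minus ob/ob, 0.64 for ob/ob minus WT and -0.12 for ob/ob TBP-2-/- minus TBP-2-/-. Against 3, 1 and 5 genes past 2-fold in the first 3 comparisons, it gave 6, 2 and 10, with medians of 0.55, -0.19 and 0.69. Higher and lower genes were then 0 and 2 for ob/ob TBP-2-/- minus ob/ob, against 1 and 0, and 9 and 1 for ob/ob minus WT, against 3 and 2. Normexp, whose offset compresses dim signals, gave 1, 0, 0 and 1 genes past 2-fold in the 4 comparisons. Additive calls for TBP-2 numbered 4 with normexp and 2 with a trend in eBayes, against 0. For ob/ob they numbered 4 with normexp, 3 with a trend in eBayes and 0 with quantile normalization, spike-in scaling, the median of probes or genes measured on at least 2 arrays, against 1. The causes of these changes in calls were not tested. Of 55 values of the 11 differences of 2-fold under 5 alternatives, 43 stayed at 2-fold, and 9 of the other 12 were under normexp. The other 3 were Adamts20 for ob/ob TBP-2-/- minus ob/ob (0.82) and Adamts16 for ob/ob minus WT (-0.66) with spike-in scaling, and Adamts10 for ob/ob minus WT (0.96) with quantile normalization. Not all of the 43 are separate checks. The deposited table holds these data at the same scaling, and the median of probes repeats the value of a gene with 1 probe measured on all 4 arrays. Of 112 differences, spike-in scaling moved 84 beyond their error and gave 27 the other sign, all 27 under 2-fold, while normexp moved 25 (other sign 2), the median of probes 8 (other sign 5) and quantile normalization 1, and 0 moved with the deposited table. Of 9 genes with several measured probes, all probes had the same sign for 7 genes in TBP-2-/- minus WT and for 6 in each other comparison. No paired analysis was possible because each genotype has 1 array. Signals near background limit Mmp9, Adamts7, Adamts10, Adamts16, Adamtsl3 and Adamts20, among others.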
